A study of Mus musculus with 2 samples.

Results

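Perlecan (Hspg2), agrin (Agrn), nidogen 1 (Nid1) and nidogen 2 (Nid2) are secreted proteins of the basement membrane. Their transcripts were followed here through the peaks of an acRIP-seq experiment, in which an antibody enriches RNA fragments that carry N4-acetylcytidine (ac4C) before sequencing. A peak was counted for a gene when its summit, the base of greatest enrichment, lay within the RefSeq span of that gene, introns included. Of the 21192 peaks in the list, 85 (0.401%) had their summit in 1 of these 4 genes. The 4 genes were chosen by protein family and by their measured peak numbers in this list, in which Hspg2 ranks near the top. Number, spacing, place, width and enrichment of peaks are therefore given as descriptions, and no test was made on them.

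PolyA RNA was taken from whole uterus on gestational day 4 in wild-type mice, with 1 ac4C immunoprecipitation library and 1 input control library. Both libraries shared tissue, day and genotype and differed in the pull-down. The number of animals, their strain and their age were not given in the sources used here. No group had a replicate, and every value below therefore rests on a single pair of libraries. Of 10 genes that mark uterine stroma, epithelium or muscle (Pgr, Esr1, Hoxa10, Hoxa11, Hand2, Foxa2, Nr2f2, Myh11, Acta2 and Krt18), 10 held a summit, against 30.7% of all protein-coding genes. These 10 genes were not on a list fixed beforehand, and neither span nor transcript abundance was matched.

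A basement membrane is the thin sheet of matrix under epithelia and around vessels and muscle fibres, and decidual cells of the uterus surround themselves with a similar matrix. Laminins and type IV collagen each form a network, nidogens bind both networks, and perlecan and agrin bring long heparan sulfate chains that hold growth factors. Agrin is best known from the nerve-muscle junction, where it acts through Lrp4 and the kinase MuSK. ac4C is an acetyl group on cytidine, placed on RNA by the enzyme NAT10.

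All 4 genes held peaks, and perlecan held by far the most. Hspg2 (NCBI gene 15530; GRCm38, chromosome 4, 137468751 to 137570630) held 52 summits in a span of 101.9 kb. Agrn (NCBI gene 11603; chromosome 4, 156165290 to 156197533) held 11 in 32.2 kb. Nid1 (NCBI gene 18073; chromosome 13, 13437602 to 13512275) held 13 in 74.7 kb, and Nid2 (NCBI gene 18074; chromosome 14, 19751257 to 19811787) held 9 in 60.5 kb. Of all 21900 protein-coding genes in the RefSeq table, 30.7% held a summit, 1.81% held 9 or more and 1.37% held 10 or more. Among the 5359 protein-coding genes with spans of 30 to 110 kb, a range that holds these 4, 37.9% held a summit and 3.27% held 9 or more. More peaks than Hspg2 were found in 2 protein-coding genes, more than Nid1 in 106, more than Agrn in 163 and more than Nid2 in 299.

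**Figure D1:**
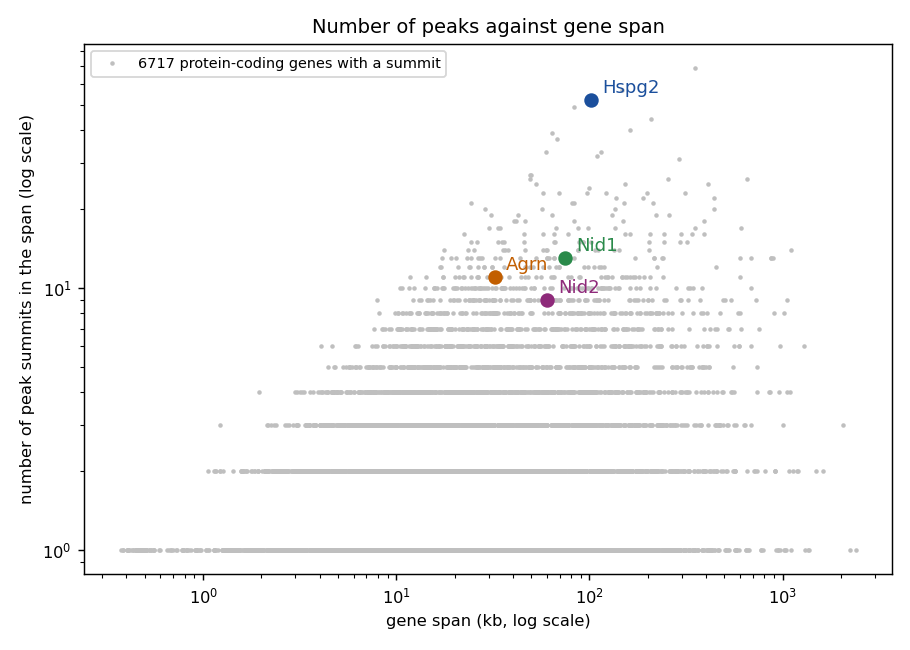
Number of peak summits (vertical axis, log scale) against gene span in kb (horizontal axis, log scale) for the 6717 protein-coding genes that held a summit, each a grey point. The 4 coloured points are Hspg2 with 52 summits, Nid1 with 13, Agrn with 11 and Nid2 with 9; Hspg2 lies near the top of the cloud and the others lie within it.

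Per 10 kb of span Agrn, the shortest of the 4 genes, came next after Hspg2. Hspg2 had 5.10 peaks per 10 kb, Agrn 3.41, Nid1 1.74 and Nid2 1.49. The median over the 1256 protein-coding genes with 5 or more summits was 1.77 (interquartile range 0.725 to 3.60). Both proteoglycan genes thus lay above that median, Nid1 lay close to it and Nid2 slightly below it. Over all 6717 protein-coding genes with a summit the median was 0.847, and all 4 genes lay above it. By peaks per 10 kb, Hspg2 ranked 162 among the 1256 genes and Agrn ranked 337, while Nid1 ranked 636 and Nid2 ranked 699. Exons were not told from introns, so a long intron lowers the value of a gene. Measured only between the first and the last summit, the values were 5.17 for Hspg2, 3.82 for Agrn, 1.80 for Nid1 and 1.59 for Nid2, in the same order.

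Peaks covered 28.5% of the Hspg2 span (29085 bp) and 18.2% of the Agrn span (5884 bp). They covered 4.83% of Nid1 (3608 bp) and 5.64% of Nid2 (3413 bp). The median over genes with 5 or more summits was 7.13%. The proteoglycan genes and the nidogen genes thus stood on opposite sides of that median. Over all 6717 protein-coding genes with a summit the median was 3.04%, and all 4 genes stood above it. Coverage is built from the number and width of peaks, so it partly repeats peaks per 10 kb.

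**Figure D2:**
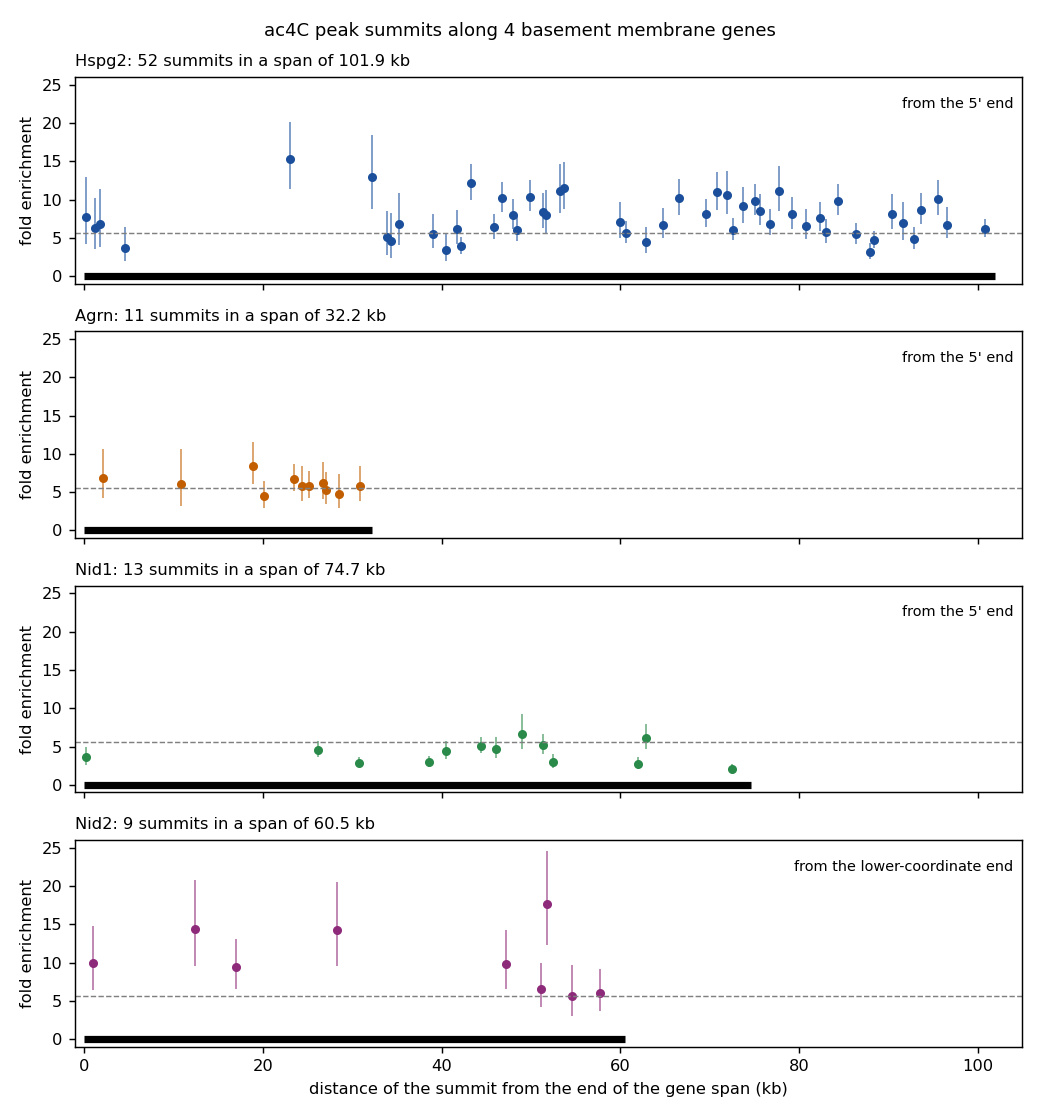
Fold enrichment at each summit (points) with its 95% exact Poisson interval (lines) along the span of each gene (black bar), as distance in kb from the 5′ end for Hspg2, Agrn and Nid1 and from the lower-coordinate end for Nid2. The dashed grey line is the median of all peaks, 5.58; most points of Hspg2 and all 9 of Nid2 lie above it, and 2 of 13 of Nid1 do.

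Perlecan is a very large proteoglycan built of repeated modules. The fold enrichment of its 52 peaks, the ratio of immunoprecipitated fragments to background at the summit as the authors' peak caller gave it, ran from 3.16 through a median of 6.98 to 15.3. The median of all peaks was 5.58, and 41 of the 52 peaks (78.8%) lay above it. Behind these values lay 9 to 114 fragments of the immunoprecipitation at the summit, with a median of 55. At this depth the 95% interval of a fold enrichment ran, in the median Hspg2 peak, from 75.8% to 129.6% of the value. Intervals here cover counting error of the immunoprecipitation alone.

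The 2 highest Hspg2 peaks stood in the earlier part of the gene. The highest (137491174 to 137492135) stood at 15.3-fold (95% interval 11.4 to 20.1) on 49 fragments. It lay 23045 bp from the 5′ end of the span, after 18441 bp with no summit, the longest gap of the gene. The next highest (137500901 to 137501133) stood at 13.0-fold (8.83 to 18.4) on 29 fragments, 9203 bp further on and 1603 bp before the summit after it. The intervals of these 2 peaks overlapped. The lowest (137556466 to 137556665) stood at 3.16-fold (2.22 to 4.38) on 34 fragments, and its interval lay below those of the 2 highest.

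Depth changed along Hspg2, at a point chosen after the values were seen. The first 12 summits, up to 41.7 kb from the 5′ end, rested on 9 to 49 fragments (median 14) over a background of 0.692 to 4.38 fragments (median 1.54). The last 40 summits, from 42.2 kb on, rested on 27 to 114 fragments (median 60.5) over a background of 3.10 to 17.5 (median 7.44). Fragments and background thus rose together, and fold enrichment changed less. Its median was 6.19 over the first 12 summits and 7.99 over the last 40. The fold enrichment adds 1 to fragments and to background, which lowers it most where background is small, and without that addition the medians were 8.81 and 8.89. Peak width had a median of 261.5 bp in the first set and 524.5 bp in the second. Whether the lower depth of the earlier summits comes from the RNA or from the libraries was not tested.

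**Figure D3:**
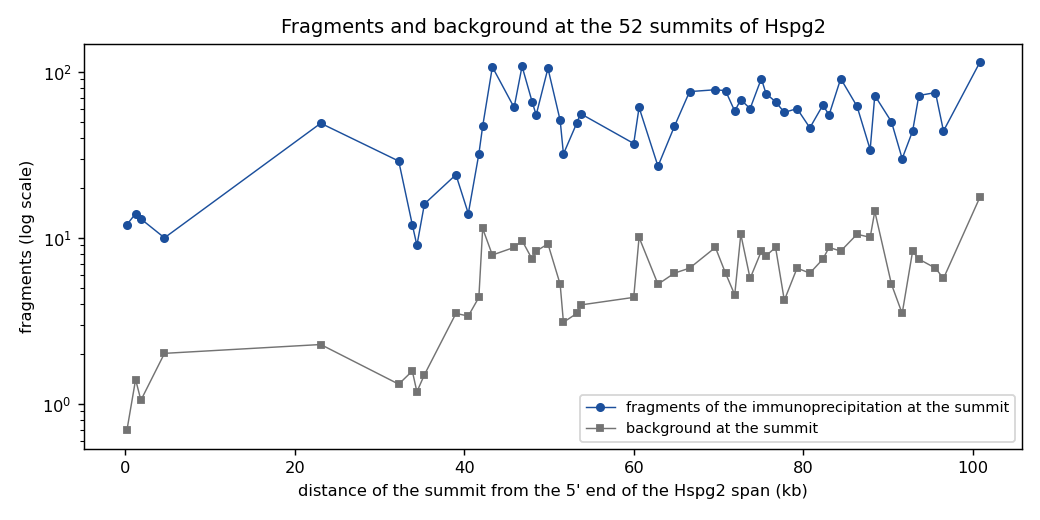
Fragments of the immunoprecipitation (blue circles) and background (grey squares) at the 52 summits of Hspg2, on a log scale, against distance from the 5′ end of the span in kb. Both series step up near 42 kb, from medians of 14 and 1.54 fragments over the first 12 summits to 60.5 and 7.44 over the last 40.

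Hspg2 summits followed each other closely. The 51 gaps between neighbouring summits had a median of 1264 bp (interquartile range 913 to 1855 bp) and a mean of 1974 bp. Of the 51 gaps, 15 were shorter than 1 kb, 27 measured from 1 to 2 kb and 3 were longer than 5 kb. Most of the peaks therefore formed a chain with steps of 1 to 2 kb or less, broken by a few long gaps. Gaps were measured on the genome, introns included, and how far they follow the layout of exons and introns was not tested. The smallest gap was 387 bp. Over the 299 protein-coding genes with 10 or more summits, the median gap of a gene had a median of 1942 bp (interquartile range 1266 to 3802 bp).

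With the span cut into 10 equal parts from the 5′ end, part 2 held 0 of the 52 summits and part 3 held 1, while part 8 held 9. Parts 6 to 10 held 63.5% of the summits. The same share over all genes was not computed. Both ends of the gene carried a peak. The first peak (137468815 to 137469057) began 12 bp past the transcription start listed by RefSeq at 137468803, and its summit lay 117 bp past it, at 7.69-fold (4.26 to 13.0) on 12 fragments. The last peak (137569097 to 137570565) was the widest of the gene, at 1469 bp, and had its summit 1054 bp before the end of the span. It stood at 6.21-fold (5.13 to 7.45) on 114 fragments, the most of any Hspg2 summit, over the highest background of the gene (17.5).

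Width varied widely within Hspg2, from 200 bp, the smallest width in the list, through a median of 465 bp to 1469 bp. The median of all peaks was 315.5 bp. Peaks of at least 1000 bp numbered 7 in Hspg2 (13.5%), against 5.50% of all peaks. Wider peaks of the gene tended to be the more enriched ones (Spearman's rho 0.46 over 52 peaks, which share 1 transcript and 1 pair of libraries). In the other genes rho was 0.064 over 11 peaks in Agrn, -0.44 over 13 in Nid1 and -0.12 over 9 in Nid2. These rest on few peaks, and whether rho differs between the genes was not tested. The Hspg2 value also spans the first 12 and the last 40 summits, which differed in depth, median width and median fold enrichment.

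One Hspg2 peak contains a microRNA gene, and the sequence of that microRNA is shown because it was at hand. Mir7018 lies on the same strand as Hspg2 (chromosome 4, 137538286 to 137538370) and wholly within the peak from 137538069 to 137538535, whose summit at 137538372 lies 2 bp past the hairpin. The RefSeq hairpin (GRCm38.p6, 5′ to 3′, cytidines in capitals) and the 3p mature sequence (seed, bases 2 to 8, in capitals) read as follows.
Mir7018 hairpin: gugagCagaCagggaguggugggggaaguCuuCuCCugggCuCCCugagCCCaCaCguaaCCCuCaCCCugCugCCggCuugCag
mmu-miR-7018-3p: uCACCCUGcugccggcuugcag
Cytidine made up 27 of the 85 bases of the hairpin (31.8%). The 3p sequence at the summit end held 9 cytidines in 22 bases, against 2 in the 24 bases of the 5p sequence. Of 1005 mouse hairpins in the table, 79 (7.86%) lay wholly within a peak. The median cytidine content was 23.8% (upper quartile 27.9%) over all hairpins and 29.1% over those within a peak. The peak stood at 8.10-fold (6.42 to 10.1) on 78 fragments. Fragments of the microRNA precursor, of an intron and of neighbouring exons cannot be told apart in this list, and which cytidine was modified was not measured.

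Agrin is the other heparan sulfate proteoglycan of the group. Its 11 peaks stood, from the 5′ end of the gene, at 6.91, 6.06, 8.44, 4.47, 6.75, 5.78, 5.82, 6.22, 5.26, 4.79 and 5.78-fold. These values lie close together, and the interval of every peak overlapped that of every other. The median was 5.82, and 8 of the 11 peaks (72.7%) lay above the median of all peaks. The summits rested on 10 to 56 fragments (median 25), so a typical interval ran from 66.1% to 145.8% of the value.

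The highest Agrn peak (156178548 to 156179671), at 8.44-fold (6.01 to 11.6) on 37 fragments, was also the widest, at 1124 bp. Next to it the lowest (156176519 to 156177617), at 4.47-fold (2.95 to 6.52) on 25 fragments, was nearly as wide, at 1099 bp. Width and fold enrichment thus did not go together in these neighbours. The median width in Agrn was 415 bp.

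Most Agrn summits lay in the later part of the span. Parts 6 to 10 held 9 of the 11 summits (81.8%), and the gaps among those 9 ran from 435 to 3381 bp. As for Hspg2, no share over all genes was computed, so this place is not shown to be particular to Agrn. The 2 summits of the earlier part were set apart by gaps of 8770 and 8042 bp. Both also lay in Gm46878, a long non-coding RNA gene, and since the list gives no strand their gene cannot be told apart. The first of them (156195346 to 156195575), at 6.91-fold (4.24 to 10.7), lay 2043 bp past the listed start at 156197488. The other (156186576 to 156186868), at 6.06-fold (3.19 to 10.7) on 10 fragments, lay 416 bp before a second listed start of the gene at 156186259. With summits in exactly 1 gene of any kind, Agrn kept 9 peaks.

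Nidogens bind laminin and type IV collagen and link the networks of both. The 2 nidogen genes had similar peak numbers but different fold enrichments. In Nid1, from the 5′ end, the 13 peaks stood at 3.57, 4.59, 2.89, 3.01, 4.46, 5.10, 4.70, 6.69, 5.21, 3.04, 2.76, 6.15 and 2.12-fold. In Nid2, from the lower-coordinate end, the 9 peaks stood at 9.94, 14.4, 9.38, 14.3, 9.82, 6.59, 17.6, 5.61 and 5.99-fold. The Nid1 values lie mostly below the median of all peaks, with 2 of 13 (15.4%) above it, and 9 of 9 Nid2 values lie above it. The medians were 4.46 for Nid1 and 9.82 for Nid2, a ratio of 2.2, or 3.15 without the 1 added to fragments and background. Of the 9 Nid2 peaks, 6 lay above the highest Nid1 peak, and 3 did so with their whole interval.

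Background ran the other way. It was 4.38 to 25.4 fragments (median 13.1) at the Nid1 summits and 0.875 to 2.63 (median 1.31) at the Nid2 summits, so the ranges did not overlap. The medians differed by a factor of 10. Immunoprecipitated fragments ranged from 35 to 89 in Nid1 (median 59) and from 11 to 33 in Nid2 (median 26), again without overlap. Whether background follows the amount of transcript was not tested, and which control gave it was not stated. Even if it does, in whole uterus fewer cells that make a transcript and less of it per cell cannot be told apart. The fold enrichment needed to enter the list was lower where background was high. Near the median background of Nid2 (within 10%), the lowest of 1555 peaks stood at 3.46-fold, and near that of Nid1 the lowest of 526 stood at 1.999-fold. Of the 13 Nid1 peaks, 5 were below 3.46-fold.

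**Figure D4:**
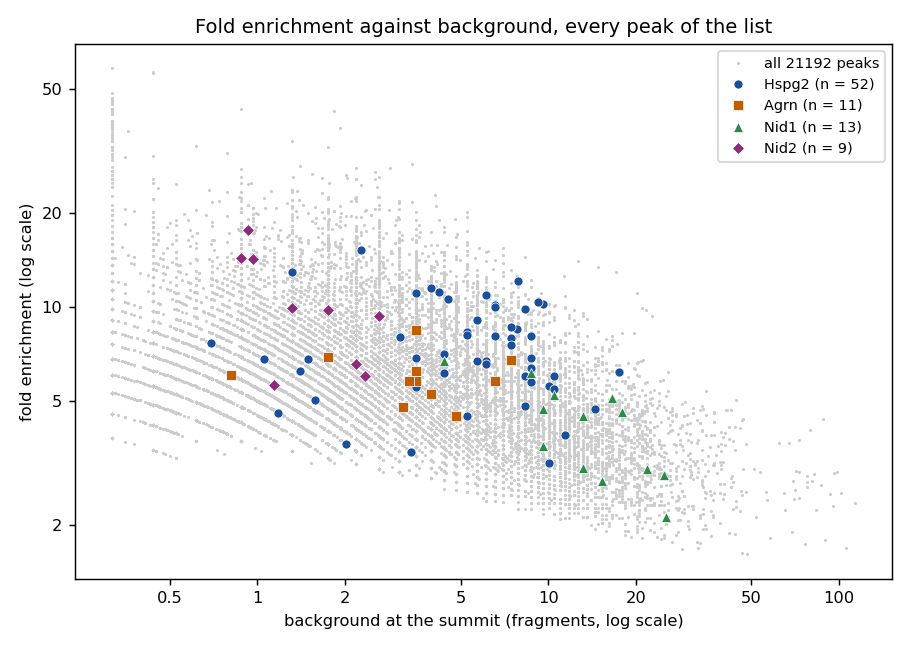
Fold enrichment against background at the summit in fragments, both on log scales, for every peak of the list (grey) and the peaks of Hspg2, Agrn, Nid1 and Nid2 (coloured). The grey cloud slopes down to the right; Nid2 lies at backgrounds of 0.875 to 2.63 and Nid1 at 4.38 to 25.4, with no overlap between them.

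Each peak was therefore also set beside the other peaks of the list whose background lay within 10% of its own, 119 to 1963 peaks each. In Nid1, 7 of 13 peaks lay above the median of those peaks, and the median Nid1 peak exceeded 65.2% of them. In Nid2, 8 of 9 lay above it, and the median Nid2 peak exceeded 84.8%. The gap between the nidogen genes was thus narrower on this scale, although Nid2 still stood higher. Agrn was the lowest of the 4 genes by its median peak, which exceeded 53.6%, with 7 of 11 peaks above. Hspg2 had 44 of 52 above, and its median peak exceeded 85.7% of the peaks at like background. Of the 52 Hspg2 peaks, 22 were among the top 10% at their background, as were 3 of 9 in Nid2 and 0 in Agrn and Nid1. Within Hspg2 the median peak of the first 12 exceeded 49.97% and that of the last 40 exceeded 90.1%.

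The highest Nid1 peak (13486480 to 13486679) stood at 6.69-fold (4.72 to 9.24) on 35 fragments and had the smallest width and the lowest background of the gene, 200 bp and 4.38 fragments. The next (13500300 to 13500520) stood at 6.15-fold (4.71 to 7.90) on 59 fragments. The lowest (13509871 to 13510177), at 2.12-fold (1.61 to 2.75) on 55 fragments, lay nearest the 3′ end, with its summit 2162 bp before it, and had the highest background of the gene. Among the 13 peaks fold enrichment fell as background rose (Spearman's rho -0.75), and background is the divisor of the fold enrichment. The same rho was -0.68 in Nid2, -0.15 in Hspg2 and -0.091 in Agrn. The widest Nid1 peak (13468136 to 13468571) measured 436 bp.

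The highest Nid2 peak (19802865 to 19803189) stood at 17.6-fold (12.3 to 24.6) on 33 fragments, the highest of all 85. It lay 650 bp from the summit of its neighbour (19802174 to 19802633), which stood at 6.59-fold on 20 fragments. The intervals of these neighbours did not overlap, and 650 bp was the shortest gap of the gene. The second highest (19763508 to 19763861) stood at 14.4-fold (9.59 to 20.8) on 26 fragments. The widest (19768055 to 19768823) measured 769 bp, and the lowest (19805699 to 19805902), at 5.61-fold (3.04 to 9.67), rested on 11 fragments.

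Peaks of the nidogen genes had smaller median widths and larger median gaps than those of perlecan. The median width was 260 bp in Nid1 and 354 bp in Nid2, below and above the 315.5 bp of all peaks. Neither gene had a peak of 1000 bp or more. Such peaks made up 5.50% of the list, so few would be looked for among 13 and 9 peaks. Median gaps were 3443 bp over 12 gaps in Nid1 and 4236 bp over 8 gaps in Nid2, against 1488 bp over 10 gaps in Agrn. Leaving out peaks tends to lengthen gaps by construction. With a −log10 q of 10 or more the medians were 1295 bp (Hspg2), 2851 bp (Agrn), 3443 bp (Nid1) and 7920 bp (Nid2). With fold enrichment no lower than the median of all peaks, they were 1381, 4182, 13822 and 4236 bp in that order. The 13822 bp was the gap between the 2 Nid1 peaks left. In the full list, 1 gap in each nidogen gene was shorter than 1 kb. The longest were 25922 bp in Nid1, just after its first peak, and 18926 bp in Nid2.

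**Figure D5:**
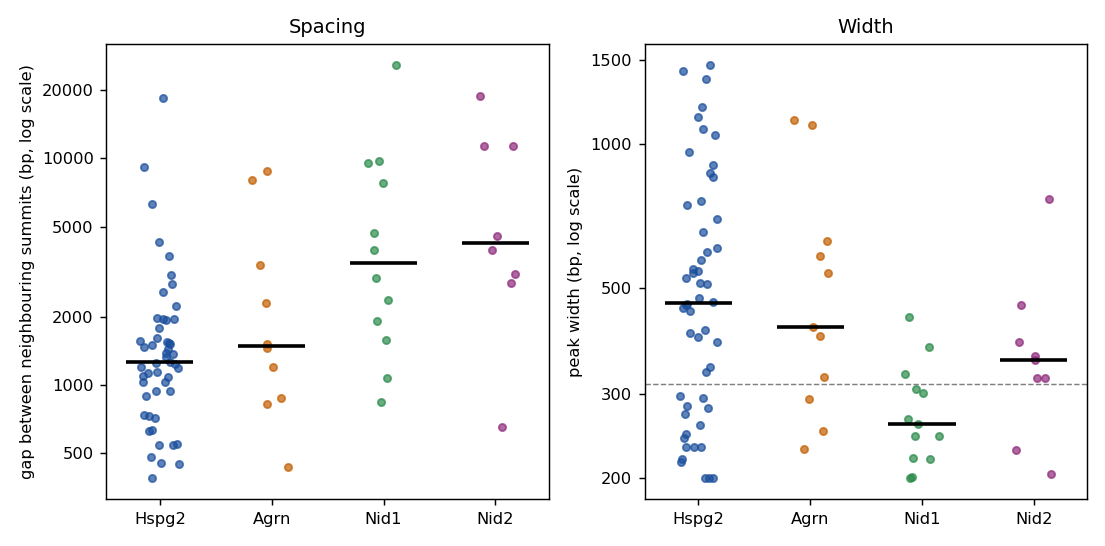
Left, gaps between neighbouring summits in bp; right, peak widths in bp; both on log scales, with 1 point for each gap or peak and a black bar at the median of the gene. Median gaps rise from 1264 bp in Hspg2 to 4236 bp in Nid2, and the dashed line marks the median width of all peaks, 315.5 bp.

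In place, Nid1 had 1 peak at the 5′ end and then its longest gap. This first peak (13437652 to 13437870) began 50 bp past the listed start at 13437602, with the summit 222 bp past it, at 3.57-fold (2.54 to 4.89) on 37 fragments. Parts 6 to 10 of the span held 10 of the 13 summits (76.9%), again with no share over all genes beside it. A summit within 500 bp past a listed start was thus found in Hspg2 and Nid1 and not in Agrn. The same was found in 22.9% of the 5351 protein-coding genes with a summit and a listed start, and in 40.1% of the 307 of these with 9 or more summits. No strand was used for Nid2, whose end summits lay 1054 bp from the lower and 2853 bp from the higher end of its span.

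The spans were well separated from other peaks except at 1 side. The nearest summit outside lay 23749 bp or more away for Hspg2, Nid1 and Nid2. For Agrn the nearest lay 2292 bp beyond the 5′ end, at 3.20-fold, while the first Agrn summit lay 2088 bp inside it.

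The genes nearest to each member in peaks per 10 kb, median fold enrichment and median width were sought among 2606 protein-coding genes with 3 or more summits, by distance over the standardised log2 values. Nearest to Hspg2 were Polrmt (distance 0.121) and Ltbp4 (0.133), the latter a gene of a matrix protein that binds latent TGF-beta, with 17 peaks. Sqstm1 (0.150) and Edc4 (0.157) were nearest to Agrn, Myl12b (0.0849) and Ubqln1 (0.135) to Nid1, and Ywhab (0.190) and Shank1 (0.324) to Nid2. Among the 4 genes themselves, Hspg2 and Agrn were the closest pair (0.845) and Nid1 and Nid2 the farthest apart (3.15). The nidogen genes were thus the least alike of the 6 pairs by this measure. It uses fold enrichment not matched for background, which differed between the nidogen genes.

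Of 77 other genes of basement membranes and heparan sulfate in 5 lists, 49 held a peak (63.6%) and 11 held 10 or more. Over all protein-coding genes, 30.7% held a peak and 1.37% held 10 or more. Among the laminin and type IV collagen genes, the partners of the nidogens, 10 of 17 held a peak. Lama5 held 27 (5.45 per 10 kb, median 6.88-fold), Col4a2 held 22 (1.61 per 10 kb, median 4.36-fold) and Lamc3 held 12 (1.94 per 10 kb, median 8.41-fold). Col4a1 also held 12 (1.05 per 10 kb), with a median of 3.75-fold. Median background was 2.63 fragments in Lama5, 7.18 in Col4a2, 1.31 in Lamc3 and 15.3 in Col4a1. Median fold enrichments of list genes, here and below, were not matched for background. Lama5, the laminin chain of many epithelial and vascular basement membranes, was close to Hspg2 in density and median fold enrichment, with a median width of 600 bp. A gene without a summit at this depth is not shown to lack ac4C.

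Of the other basement membrane genes, 14 of 18 held a peak. Hmcn2, a hemicentin with many immunoglobulin modules like perlecan, held 57 (3.89 per 10 kb), with a median of 6.27-fold and a median width of 287 bp, while its relative Hmcn1 held 0. Col18a1, itself a collagen that carries heparan sulfate, held 33 (2.89 per 10 kb, median 5.34-fold), and Col15a1 held 12 (1.14 per 10 kb, median 3.59-fold). Hmcn2 was thus the 1 listed gene with more peaks than Hspg2. In peaks per 10 kb, 3 of the 77 genes stood above Hspg2, namely Lamb2 at 9.36, Ecm1 at 6.98 and Lama5.

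Of the 6 receptor genes, 4 held a peak. Itgb4, the integrin chain of hemidesmosomes, held 17 peaks (5.05 per 10 kb, median 6.18-fold), Dag1, the dystroglycan that binds agrin, perlecan and laminin, held 3, and Itga6 and Itgb1 held 1 each. Lrp4 and Musk, the agrin receptor of the nerve-muscle junction, held 0. Of the membrane heparan sulfate proteoglycan genes, 7 of 10 held a peak, with 10 in Gpc1, 8 in Sdc3 and 4 in Gpc6. Of the genes that build or trim heparan sulfate, 14 of 26 held a peak and none held 10 or more, with 9 each in Sulf2 and Ndst1 and 5 each in Hs6st1 (median 6.08-fold) and Xylt2 (median 3.94-fold). All 5 lists had a share of genes with a peak above the 30.7% of all protein-coding genes. Listed genes are long, however, with median spans of 57.8 to 125.5 kb, and transcript abundance was not matched. Among protein-coding genes with spans of 30 to 110 kb the share was 37.9%.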

How the data were processed

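The 2 libraries of whole uterus, 1 ac4C immunoprecipitation and 1 input control, were grouped by their titles. HISAT2 2.2.1, MACS3 3.0.0a7 and the build mm10 are named per the submitters' processing notes, which give no roles or settings. The deposited list of 21192 peaks had the narrowPeak layout, and its largest q-value was 0.0499. The fold enrichment (a ratio), the −log10 p and −log10 q and the score of each peak were those the authors deposited. The score was not used. Which control gave the background was not stated.

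RefSeq gene spans and listed transcription starts (GRCm38.p6, the assembly of mm10) placed the summits. Strand came from the listed starts, which held Hspg2, Agrn and Nid1. Neither exon positions nor genome sequence were used.

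Read totals were not used here. The fragments at each summit were recovered as the whole number that gave both the deposited fold enrichment (fragments plus 1 over background plus 1) and the deposited Poisson −log10 p. A number fitted within a relative tolerance of 0.0001 for 21192 of 21192 peaks. Tested on simulated data, the step gave the true number for 100% of 2000 peaks, and after p-values were swapped between peaks some number fitted in 1.45%. Intervals are 95% exact Poisson intervals of the fragments, with background taken as known, and PCR copies count as fragments. The span was cut into 10 equal parts for place (3 as an alternative). With 1 library a group there was no test and no p-value.

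The members and gene lists were chosen with earlier results of these data known. Named were the 4 genes, the 2 highest, the widest and the lowest peak of each, the 3 genes of each list with the most peaks (ties by highest fold enrichment, with Col4a1 and Xylt2, tied for the last place, added; all of a list of 6), and the 2 genes most like each member. Other list genes named, among them those without a peak, and the split of Hspg2 summits were chosen after their values were seen. The genes that mark uterine stroma, epithelium or muscle were not named by these rules. Alternatives were a −log10 q of at least 10, fold enrichment no lower than the median, overlap of at least 1 bp, summits in 1 gene, joining of summits within 500 bp and a width of at most 1000 bp. Computations used Python 3.11.15 with SciPy 1.17.1 and pandas 2.3.3.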

Additional observations from a re-analysis of the deposited data

How the results depend on the processing

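Of 152 values under alternatives, 135 were counted as unchanged. Counts had to stay within 1.5 times the reported count, and medians and shares within the 95% binomial interval over the peaks of the gene. The highest fold enrichment had to stay within the Poisson interval of the top peak, and the order of the genes had to be identical. Many values could not move. Overlap left the peaks of all 4 genes unchanged, as did the limit to summits in 1 gene for all but Agrn and the width limit for both nidogen genes. Number of peaks and peaks per 10 kb also shared 1 verdict. With a −log10 q of at least 10, Agrn kept 7 peaks (2.17 per 10 kb), and 17.6% of protein-coding genes held a peak and 0.342% held 10 or more. With fold enrichment no lower than the median of all peaks, Nid1 kept 2 peaks (0.268 per 10 kb) with a median of 6.42-fold, a width of 210.5 bp and a gap of 13822 bp, so that Nid2 came before Nid1 in peaks per 10 kb and 2 of the 4 genes kept their place. Under the other 6 alternatives for this order 4 of 4 did; all but the one between first and last summit were tried after the data were seen. Under that filter 20.4% of genes held a peak and 0.347% held 10 or more. Fewer peaks enter under both filters by construction. Some intervals were wide: median gaps within them still moved from 1488 to 2851 bp (q filter) and 4182 bp (fold filter) in Agrn and from 4236 to 7920 bp (q filter) in Nid2. With no pseudocount, tried after the data were seen, the median fold enrichment was 8.89 in Hspg2, 7.21 in Agrn and 14.8 in Nid2, higher by construction. The last of 3 equal parts of the span, which is shorter than parts 6 to 10 of 10, held 46.2% of Hspg2 and 38.5% of Nid1 summits, against 63.5% and 76.9%. Hspg2 kept 41 to 52 peaks and Nid2 7 to 9 under every alternative run. Peaks per exon length or protein length were not run, as no such table was used. No paired analysis was possible because each group held 1 library. Near the median background of Nid2 no listed peak was below 3.46-fold or rested on fewer than 7 fragments, so weaker enrichment there was not detectable at this depth.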

Other observations

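Hspg2 held a pair of peaks with the same values at different places. The peaks from 137543332 to 137544029 and from 137552636 to 137553835 both stood at 9.87-fold on 91 fragments over a background of 8.32. Among genes with 10 or more summits, 2750 pairs of summits in 1 gene had at least 50 fragments each, and 4 pairs (0.145%) shared both fold enrichment and p. The pair was named after its values were seen, and whether its reads were shared between repeated modules of the gene was not tested.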
